A study of Arabidopsis thaliana with 6 samples.

Results

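The genes examined here bring sulfur into Arabidopsis metabolism or move one class of its products. They are APS3 and SIR of sulfate assimilation, and the glucosinolate importers GTR1 and GTR2. They were taken as the listed genes that the platform annotation ties to a probe set of exactly 1 gene, and each of the 4 had 1 such probe set, out of 13286 genes with a locus and 22746 probe sets on the array. APS3 is locus AT4G14680, SIR is AT5G04590, GTR1 is AT3G47960 and GTR2 is AT5G62680. No member carried a second probe set, so each result below rests on 1 measurement per array.

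The compared plants were the lib mutant and its wild type, both of the Columbia-0 ecotype and 8 days old, with 3 biological replicates of each on Affymetrix ATH1 arrays. Neither group was treated, and both were raised in days of 16 h light and 8 h darkness on upright agar plates that held 1% sucrose. The sources used here name no allele for lib; from the title of the series it is a line with a limited isoleucine supply, and the study is known to trace it to OMR1, the threonine deaminase that opens isoleucine synthesis. The annotation ties no probe set to OMR1 alone, so the labels were not checked through it. The sample labels name the tissue as whole seedlings, while the text on the design of the series speaks of root tissue. All 4 shoot markers and all 3 root markers chosen for a check had signals above the lowest value of the table on every array. Only 405 to 734 of the 22746 probe sets were at that value on an array, so this does not show expression. The summed shoot marker signal was 1092 to 1492 on the lib arrays and 1658 to 2636 on the wild type arrays, and the summed root marker signal was 13542 to 15628 on the lib arrays and 17811 to 21898 on the wild type arrays. The shoot sum was mostly that of LHCB4.1 and RCA. PRK was dim, at 27.6 to 71.3 on the lib arrays and 47.9 to 79.7 on the wild type arrays. SBPASE was also dim, at 25.3 to 53.8 in lib and 31.9 to 66.4 in wild type, and for both genes the groups overlap. The root sum was mostly that of PYK10. EXPA7 and EXPA18 together summed to 1434 to 1695 on the lib arrays and 1213 to 1902 on the wild type arrays, which overlap. Of the shoot markers, LHCB4.1 and RCA fell, and of the root markers PYK10 fell, and these calls were lost in 7, 11 and 10 of 14 other settings of the processing for LHCB4.1, RCA and PYK10 in that order. In such whole-tissue samples, fewer cells of a type and less RNA per cell cannot be told apart. Median log2 signals per array were 7.40 to 7.52. The array of lib replicate 3 was by a little the least similar to the others of its group. Its median Spearman correlation with them was 0.981, against 0.984 and 0.983 for lib replicates 1 and 2. For each wild type array this value was 0.98. The array weights from limma were 0.507 for lib replicate 3, 0.649 for wild type replicate 3 and 2.41 for lib replicate 1.

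Plants take up sulfate through membrane transporters and activate it with ATP sulfurylase, which makes adenosine 5'-phosphosulfate. In the reductive branch APS reductase turns this intermediate into sulfite, and sulfite reductase reduces sulfite to the sulfide that is built into cysteine. In the other branch a kinase makes the activated sulfate that sulfotransferases use in the last step of the glucosinolate core, while cysteine supplies methionine and glutathione to the earlier steps. Glucosinolates are sulfur-rich defence compounds of the cabbage family, and they are moved between tissues by proton-coupled importers of the NPF family, of which GTR1 and GTR2 are the best known.

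None of the 4 transcripts passed the test of lib against wild type. Fitted fold changes of the 4 genes ran from 0.92 for GTR1 to 1.2 for APS3. The test was limma on the log2 values of all probe sets, with p-values adjusted by the Benjamini-Hochberg method, and an adjusted p under 0.05 was counted as a change. Over all probe sets 20.7% changed by that rule, and 34.1% of the 11373 probe sets with a mean signal above the median, where all 4 genes lie. The unadjusted limma p-values were 0.0807 for APS3, 0.142 for SIR, 0.459 for GTR1 and 0.402 for GTR2. The median log2 fold change of the 4 genes was 0.13, against -0.043 for all probe sets.

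**Figure D1:**
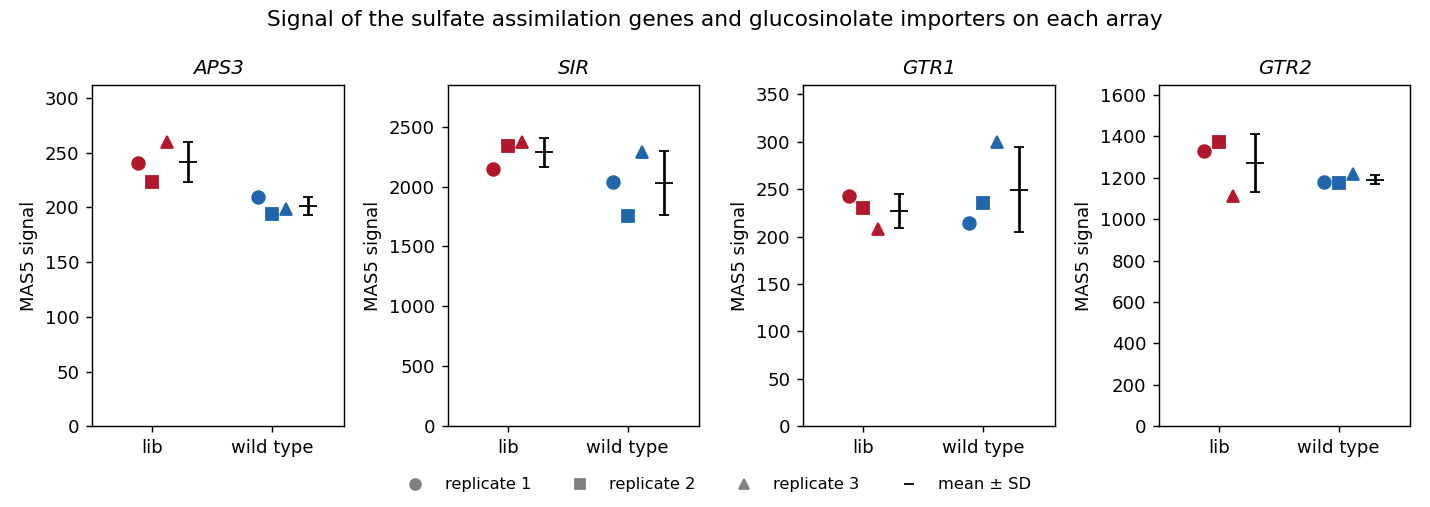
MAS5 signal (vertical axes, linear, from 0) of APS3, SIR, GTR1 and GTR2 on the 3 lib arrays (red) and the 3 wild type arrays (blue); symbols mark the replicate number and the black bars the mean ± SD of the signals. For APS3 the lib arrays, at 223 to 260, lie above the wild type arrays, at 194 to 210; in the other 3 panels the groups overlap.

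APS3 encodes one of the isoforms of ATP sulfurylase, the enzyme that activates sulfate. Its signal was 241, 223 and 260 on the lib arrays (replicates 1, 2 and 3), against 210, 194 and 199 on the wild type arrays. The 3 lib arrays were all higher than the 3 wild type arrays, with a narrow gap between the lowest lib array and the highest wild type array. Its mean log2 signal was 7.91 ± 0.11 in lib and 7.65 ± 0.06 in wild type (SD, n = 3 each), a log2 fold change of 0.26 (SE 0.13, limma adjusted p = 0.21, unadjusted p = 0.0807). The 95% interval of this log2 fold change ran from -0.04 to 0.56, or from 0.97-fold to 1.48-fold. APS3 was the only one of the 4 genes whose groups did not overlap, and 38.1% of all probe sets showed such a separation. An exact two-sided permutation test of APS3 over the 6 arrays gave p = 0.1, the smallest value that 3 arrays against 3 allow. In the authors' deposited table APS3 has a ratio of lib to wild type of 1.2 and a p-value, unadjusted as that column was found to be, of 0.0355, so it lies under 0.05 there and far from the 2-fold change that the design text asks for.

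SIR encodes sulfite reductase, which makes sulfide in the plastid. Its signal was 2145, 2336 and 2373 on the lib arrays, against 2034, 1756 and 2291 on the wild type arrays. The groups overlapped through wild type replicate 3, which was above lib replicate 1. The mean log2 signal was 11.16 ± 0.08 in lib and 10.98 ± 0.19 in wild type (SD, n = 3 each). The log2 fold change was 0.18 (SE 0.11, limma adjusted p = 0.304), with a 95% interval of -0.07 to 0.43, which corresponds to 0.95-fold to 1.35-fold. The value leaned on wild type replicate 2, the lowest of the 6 arrays, and was 0.08 (limma adjusted p = 0.66) without it. In the authors' deposited table SIR has a ratio of 1.13 and a p-value of 0.243.

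GTR1, also called NPF2.10, encodes one of the importers that load glucosinolates into cells along the vasculature. Its signal was 243, 230 and 208 on the lib arrays, against 214, 235 and 300 on the wild type arrays. Wild type replicate 3 was well above the 5 other arrays, and the lib values lay within the range of the wild type apart from lib replicate 3, the lowest array of all. The mean log2 signal was 7.82 ± 0.11 in lib and 7.95 ± 0.25 in wild type (SD, n = 3 each). The log2 fold change was -0.12 (SE 0.16, limma adjusted p = 0.65), with a 95% interval of -0.49 to 0.24, or 0.71-fold to 1.18-fold. Without wild type replicate 3 it was 0.02, on the other side of 0. In the authors' deposited table the ratio of GTR1 is 0.91 and its p-value 0.497.

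GTR2, also called NPF2.11, encodes the second of these importers. Its signal was 1332, 1374 and 1113 on the lib arrays, against 1180, 1177 and 1218 on the wild type arrays. The wild type arrays were close together, and the lib arrays lay on both sides of them, with replicates 1 and 2 above and replicate 3 below. The mean log2 signal was 10.31 ± 0.16 in lib and 10.22 ± 0.03 in wild type (SD, n = 3 each). The log2 fold change was 0.09 (SE 0.1, limma adjusted p = 0.598), with a 95% interval of -0.14 to 0.32, or 0.91-fold to 1.25-fold. Without lib replicate 3 the log2 fold change was 0.18, and it still did not pass (limma adjusted p = 0.177). In the authors' deposited table GTR2 has a ratio of 1.07 and a p-value of 0.447.

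The intervals of all 4 genes end below a 1.5-fold rise and above a 1.5-fold fall. From the SE of each probe set and the largest unadjusted p that still passed (0.0103), the smallest log2 fold change that would have been called was 0.43 for APS3, 0.36 for SIR, 0.51 for GTR1 and 0.33 for GTR2. On the fold scale these limits are 1.35, 1.28, 1.43 and 1.25 for these genes in the same order. These limits apply to the fitted change at the SE found here, and smaller fitted changes would not have been called. A true change near such a limit could also be missed with 3 arrays per group. Among the 11373 brighter probe sets, 54.9% had a larger absolute log2 fold change than APS3, 68.0% a larger one than SIR, 77.8% than GTR1 and 83.8% than GTR2.

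**Figure D2:**
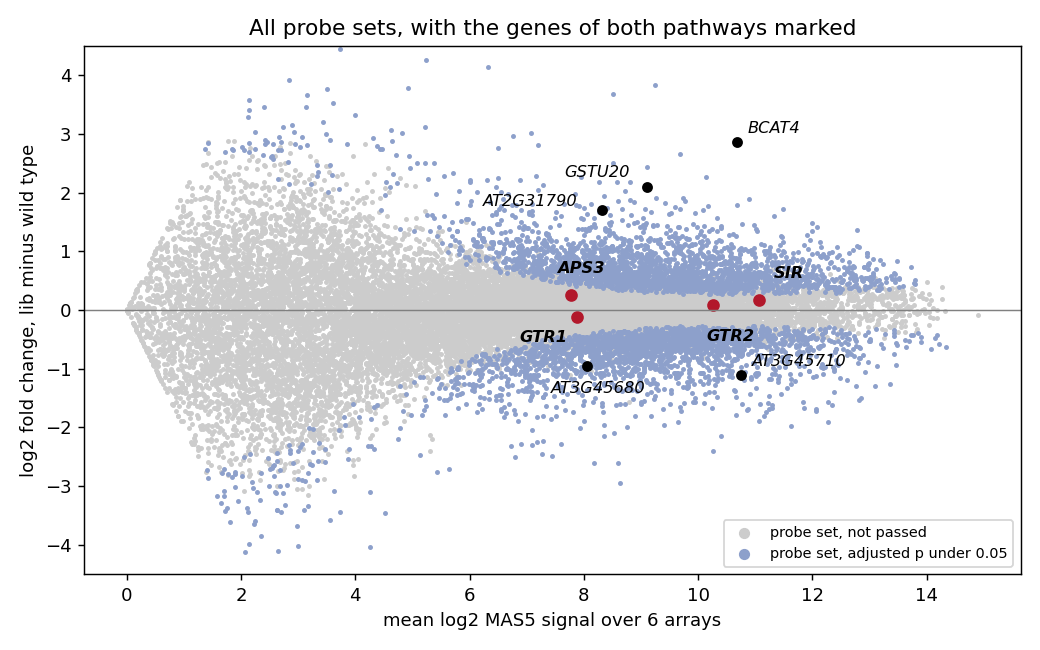
Log2 fold change, lib minus wild type (vertical axis), against the mean log2 MAS5 signal over the 6 arrays (horizontal axis) for all probe sets; blue points passed an adjusted p under 0.05 and grey ones did not, and 1 probe set beyond a log2 of 4.5 is not drawn. APS3, SIR, GTR1 and GTR2 (red) lie in the grey band near 0, while BCAT4, GSTU20 and AT2G31790 (black) stand between 1.71 and 2.86 and the loci AT3G45680 and AT3G45710 near -1.

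On the lib arrays APS3 and SIR differed from the importers in their extremes. Lib replicate 3, the array of lowest weight, had the highest signal of its group for APS3 and SIR and the lowest of its group for GTR1 and GTR2. This rests on 1 array and does not hold for all assimilation genes. APS4, another ATP sulfurylase gene, was also lowest on lib replicate 3, at 4287 against 4871 and 4773 on lib replicates 1 and 2. Whether 2 of the genes responded unequally to the mutation was tested for each of the 6 pairs, as the log2 difference of both genes within each array, compared between lib and wild type. The furthest apart were GTR1 and APS3: GTR1 minus APS3 was -0.09 ± 0.2 in lib and 0.3 ± 0.28 in wild type (SD, n = 3 each), so that GTR1 moved by -0.39 relative to APS3 (95% interval -0.94 to 0.17, exact two-sided permutation p = 0.2, 0.6 adjusted over the 6 pairs). The importers differed from each other by less: GTR2 moved by 0.21 relative to GTR1, with a 95% interval of -0.17 to 0.6 (exact permutation p = 0.3, adjusted 0.6). SIR moved by -0.08 relative to APS3, with a 95% interval of -0.43 to 0.27 (exact permutation p = 0.6, adjusted 0.7). The arrays of both genotypes overlapped for all 6 pairs, and none passed. An exact permutation test of 3 arrays against 3 cannot go below p = 0.1, so these tests cannot show that 2 genes behaved alike or differently at a threshold of 0.05.

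Enzymes of aliphatic glucosinolate synthesis, which draw on the sulfur supply, were set beside the 4 genes. BCAT4, the aminotransferase that sends methionine into chain elongation, had signals of 4448, 4515 and 4309 on the lib arrays, against 406, 553 and 1001 on the wild type arrays, a log2 fold change of 2.86. GSTU20, a glutathione transferase assigned to the pathway, had signals of 1170, 1032 and 1224 in lib, against 231, 281 and 297 in wild type (log2 fold change 2.09). AT2G31790, a glucosyltransferase of the core structure, had signals of 602, 615 and 531 in lib, against 155, 155 and 233 in wild type (log2 fold change 1.71). These 3 genes were chosen because they were known to rise, so their changes, and the direction of any difference from them, are given as a description with no test. The within-array log2 difference of APS3 from AT2G31790 was -1.27 ± 0.22 in lib and 0.18 ± 0.35 in wild type (SD, n = 3 each), a shift of -1.45, the smallest of the 12 pairs. That of GTR1 from BCAT4 was -4.29 ± 0.09 in lib and -1.3 ± 0.41 in wild type (SD, n = 3 each), a shift of -2.99, the greatest of the 12.

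**Figure D3:**
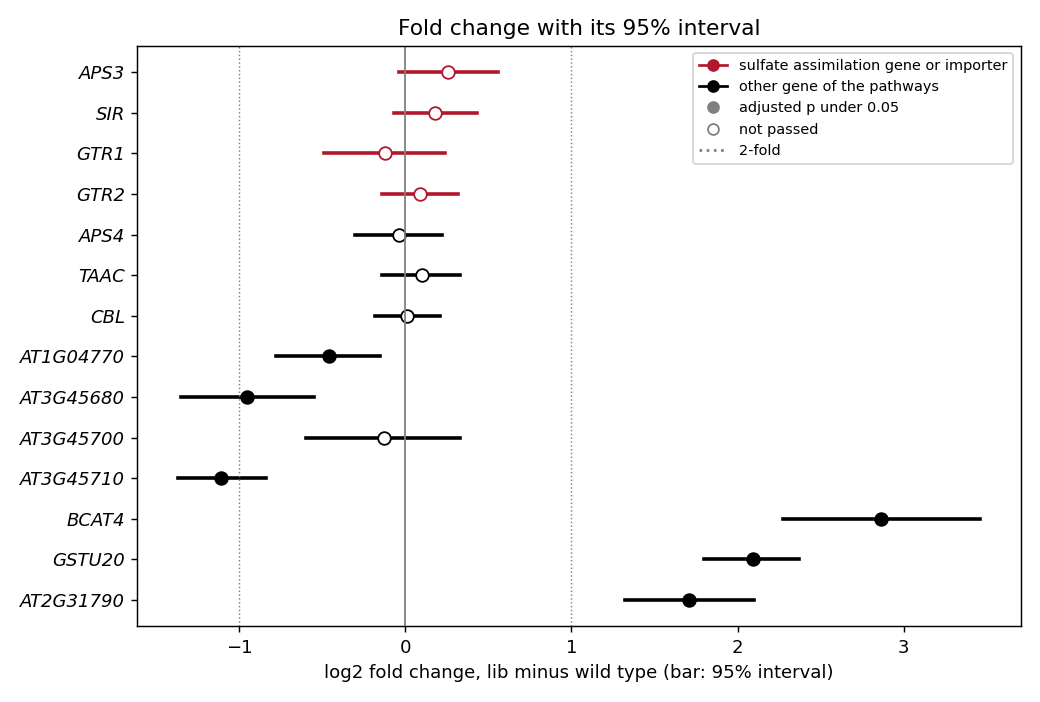
Log2 fold change, lib minus wild type (horizontal axis), with its 95% interval from limma for the 4 genes (red) and other genes of the pathways (black). The dim genes BGLU28, AT3G45720, AT3G45690, AT5G28470 and AT1G69860, whose intervals are wide, are not drawn. Filled circles passed an adjusted p under 0.05, and dotted lines mark a 2-fold change. The red intervals all cross 0 and stay inside the dotted lines, and those of BCAT4, GSTU20 and AT2G31790 lie beyond the 2-fold line.

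The annotation limits how much of the surrounding pathway can be read from these arrays. The 7 lists used here hold 73 loci. They cover sulfate transport, activation and reduction, the sulfate donor branch, cysteine and glutathione synthesis, methionine synthesis, the sulfur deficiency response and the NPF2 transporters. The annotation gives no gene for 8730 of the 22746 probe sets, so listed loci may have probe sets that it does not name. It ties 16 of the 73 loci to a probe set of exactly 1 gene, the 4 genes included. Of these 16, 0 rose, 3 fell and 13 did not pass, beside 10.4% of all probe sets that rose and 10.3% that fell. The 3 that fell have a mean signal above the median, where 34.1% of probe sets changed in either direction. BGLU28, AT3G45720, AT3G45690, AT5G28470 and AT1G69860 lie below the median. At their SE the smallest fold change that would have been called was 2.35 for AT3G45720 and up to 7.46 for AT3G45690. Their lack of a call therefore says little. None of the 12 sulfate transporters and none of the 13 genes of cysteine and glutathione synthesis could be tied to a probe set of 1 gene, and the same holds for the APS reductases, so these steps were not analysed here.

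Within sulfate activation and reduction, 3 of 8 genes were measured and none passed. APS4, another isoform of ATP sulfurylase, had signals of 4871, 4773 and 4287 on the lib arrays, against 4918, 5310 and 4162 on the wild type arrays. Both groups spanned nearly the same range, and the log2 fold change was -0.04 (SE 0.12, limma adjusted p = 0.85, 95% interval -0.3 to 0.22). Its sign turned without lib replicate 3 and without wild type replicate 2. The sign of APS3 was positive in every setting tried, but its groups did not overlap, so leaving out an array could not turn it. A difference between APS3 and APS4 was not tested. Of the other listed genes around these steps, CBL and TAAC were measured, and neither passed. CBL, the cystathionine beta-lyase of methionine synthesis, ranged from 2586 to 2785 on lib arrays and 2564 to 2825 on wild type arrays, with a log2 fold change of 0.01 (SE 0.09, limma adjusted p = 0.947) whose sign turned without lib replicate 1 and without wild type replicate 3. TAAC, which the gene table names a thylakoid ATP/ADP carrier and which was listed here because the same protein is also known to carry activated sulfate, ranged from 472 to 527 on lib arrays and 430 to 476 on wild type arrays, with a log2 fold change of 0.1 (SE 0.1, limma adjusted p = 0.567).

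Of the 8 listed genes of the sulfur deficiency response, 2 were measured. AT1G04770, which has no name in the gene table, had signals of 732, 726 and 601 on the lib arrays, against 828, 889 and 1138 on the wild type arrays. Its lib arrays were all lower, and it fell by 0.46 on the log2 scale (SE 0.14, limma adjusted p = 0.0428). That call was lost in 8 of 14 other settings, and the log2 fold change ranged from -0.56 to -0.33 over all 14. With the replicate number as a block the limma adjusted p was 0.0969. BGLU28, a beta-glucosidase strongly raised by sulfur starvation, was dim, at 14.2 to 56 on lib arrays and 9.19 to 34.7 on wild type arrays, and its log2 fold change of 0.26 had a 95% interval of -1.27 to 1.79.

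Some relatives of the importers fell. The list of NPF2 loci holds 14 genes, of which 9 were measured, GTR1 and GTR2 among them; the placement of loci in this subfamily was taken from general knowledge, and the gene table gives no NPF name for the other 7. Of the 9 genes 2 fell, none rose and 7 did not pass, against 10.3% of all probe sets that fell. Both that fell are among the 5 loci with a mean signal above the median of all probe sets. Of all probe sets above that median, 34.1% changed in either direction, and the share that fell was not counted apart. With 5 loci, 2 calls do not set this list apart from that share. The median log2 fold change was -0.35 over the 9 genes and -0.13 over these 5 loci. AT3G45710 had signals of 1184, 1370 and 1012 on the lib arrays, against 2419, 2549 and 2651 on the wild type arrays. All lib arrays were clearly lower, and it fell by 1.11 on the log2 scale (SE 0.12, limma adjusted p = 0.00042), a change past 2-fold, which 4.93% of all probe sets reached together with a call. AT3G45680 had signals of 221, 207 and 154 in lib, against 318, 426 and 375 in wild type. Its groups did not overlap either, and it fell by 0.95 (SE 0.18, limma adjusted p = 0.00563). Both kept their call in all 14 other settings, with log2 fold changes from -1.21 to -0.99 for AT3G45710 and from -1.06 to -0.79 for AT3G45680. Of the root markers, PYK10 also fell, by 0.47, while EXPA7 stood at 0.2 and EXPA18 at 0 without passing. Of the shoot markers, LHCB4.1 and RCA fell by 0.62 each. The part of tissue composition in the falls of AT3G45710 and AT3G45680 was not tested.

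**Figure D4:**
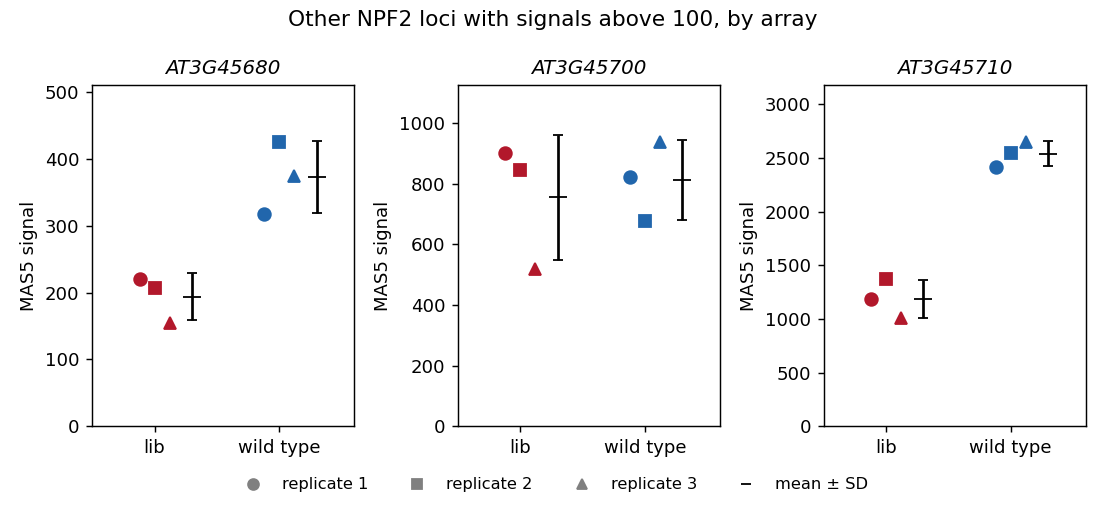
MAS5 signal (vertical axes, linear, from 0) of the NPF2 loci other than GTR1 and GTR2 with signals above 100, on the 3 lib arrays (red) and the 3 wild type arrays (blue), with the mean ± SD in black. AT3G45680 and AT3G45710 were lower on every lib array, and AT3G45700 overlapped, at 518 to 901 in lib and 677 to 938 in wild type.

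AT3G45680, AT3G45690, AT3G45700, AT3G45710 and AT3G45720 are consecutive protein-coding genes of chromosome 3 in the TAIR10.1 gene table, and hybridisation between such neighbours of one family was not tested. AT3G45700, which lies beside AT3G45710 and between the falling pair, did not pass: its log2 fold change was -0.13 (SE 0.21, limma adjusted p = 0.71), and it turned to 0.12 without lib replicate 3. AT3G45690, AT3G45720, AT5G28470 and AT1G69860 had signals between 1.72 and 34.3 on the 6 arrays, where the SE of the log2 fold change was 0.38 to 0.9, and none passed. Within arrays, GTR2 minus AT3G45710 was 0.1 ± 0.09 in lib and -1.09 ± 0.05 in wild type, and GTR1 minus AT3G45710 was -2.38 ± 0.17 in lib and -3.36 ± 0.19 in wild type (log2, SD, n = 3 each). These differences were picked after the calls were seen and are given with no test.

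The genes whose log2 signal ran most like that of each of the 4 genes over the 6 arrays were found by Pearson's r among 6052 other brighter probe sets of 1 gene. With so many candidates and 6 arrays that share genotype and processing, high values of r are a description of these arrays alone. APS3 was followed most closely by AT4G29530 (r = 0.997), AT2G05790 (r = 0.995) and AT5G57970 (r = 0.994). Their log2 fold changes were 0.52, 0.39 and 0.19. Genes picked for running like APS3 tend to share its separation of lib from wild type. The fold changes of all genes picked in this way are therefore given with no test. SIR was followed by AT4G30170 (r = 0.986), by PRL (r = 0.983) and by AT2G36090 (r = 0.982), with log2 fold changes of 0.1, 0.28 and 0.46. PRL, also called MCM7, belongs to the helicase that opens DNA for replication. GTR1 was followed by AT1G54380 (r = 0.985), AT1G48090 (r = 0.983) and Mfl1, a mitoferrin-like carrier (r = 0.972), each higher on wild type replicate 3 than on the other arrays. GTR2 was followed by AT4G01210 (r = 0.987), AT1G09150 (r = 0.985) and AT3G06240 (r = 0.985), each lowest on lib replicate 3. The log2 fold changes of these genes of GTR1 and GTR2 ran from -0.18 for AT1G48090 to 0.18 for AT1G09150. Neither importer was among the 3 closest genes of the other.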

How the data were processed

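Total RNA of 3 lib and 3 wild type samples was hybridised to 1 ATH1 array each. The deposited values are log2 signals; per the submitters' processing notes the authors made them with MAS5, whose version is not given in the sources read. On the linear scale each array has a 2% trimmed mean of 496, and the values were used as deposited. A second table deposited by the authors gives a p-value and a ratio per probe set. All 22746 ratios equal, within a relative 1e-06, the mean linear signal of lib over that of wild type, and 22737 of the p-values equal, within 1e-06, an unadjusted unequal-variance comparison of the log2 values. The number of arrays limits the precision.

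Names of probe sets came from the platform annotation, updated by gene identifier through the TAIR10.1 gene table: 13513 probe sets had 1 gene, 503 several and 8730 none. Only probe sets of 1 gene were named, on the brightest where a gene had several. limma 3.58.1 in R 4.3.3 (lmFit, eBayes with an intensity trend, 2-sided) was fitted to all probe sets, with Benjamini-Hochberg adjustment, and was tested on simulated data. Differences among the 4 genes used exact permutation tests, and their 95% intervals came from the pooled SD. The genes and lists were chosen with earlier results of these data known. Named were the 4 genes, each measured gene of the 7 lists, 3 glucosinolate enzymes and the 3 genes most like each of the 4. Alternatives were no intensity trend, quantile normalization, median centring, log2(signal + 16), brighter probe sets only, an adjusted p under 0.01, the replicate number as a block, limma's array weights, and each array left out.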

Additional observations from a re-analysis of the deposited data

How the results depend on the processing

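None of APS3, SIR, GTR1 and GTR2 passed in any of the 14 other settings. APS3 ranged from 0.21 to 0.32 on the log2 scale (lowest adjusted p 0.153), SIR from 0.08 to 0.27, GTR1 from -0.23 to 0.02 and GTR2 from 0.03 to 0.18, each range being reached by leaving out single arrays; GTR1 turned to 0.02 without wild type replicate 3. Over all probe sets 4708 changed. This count was 2383 with no intensity trend, 2257 at an adjusted p under 0.01, and 2705 to 3747 with 1 array left out, the lowest without lib replicate 1. With array weights it was 5602, the highest count of the 14 settings. The deviations of same-numbered lib and wild type arrays had r of 0.05, -0.2 and -0.23, and those of differently numbered arrays -0.12 to 0.25. These few values show no sign of pairing by number, but they cannot exclude it. With the replicate block 3442 probe sets changed. APS3 then stood at 0.26 (limma adjusted p = 0.304), SIR at 0.18, GTR1 at -0.12 and GTR2 at 0.09. Signs also turned, without a call, when single arrays were left out: APS4 ranged from -0.14 to 0.04 (0.01 without lib replicate 3), CBL from -0.02 to 0.05 (-0.01 without lib replicate 1), BGLU28 from -0.34 to 0.65 (-0.31 without wild type replicate 3), AT3G45700 from -0.28 to 0.12, AT5G28470 from -1.26 to 0.12 and AT1G69860 from -1.19 to 0.25. AT3G45700 also stood at 0.06 with array weights. The cause was not tested. Dim probe sets such as BGLU28 allow no statement on changes of less than several-fold.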
